A study of Mus musculus with 6 samples.

Results

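The genes described here encode the replication-dependent core histones H2A, H2B, H3 and H4 and the linker histone H1. They were chosen by name alone: every gene symbol that starts with H1f, H2ac, H2bc, H3c or H4c followed by a digit, or with the older stem Hist followed by a cluster digit and h. This finds 72 of the 53927 gene symbols in the files: 11 for H1, 20 for H2A, 17 for H2B, 12 for H3 and 12 for H4. RNA-seq had been made from mouse embryonic stem cells (ESCs) labelled wild type in a pair of media, with 3 libraries for each. Cells of both groups grew in serum-free N2B27 that held 1 µM PD0325901, a MEK inhibitor. The medium called 2i also held 3 µM CHIR99021, which blocks GSK3 alpha and GSK3 beta, and the medium called BRD0705/PD03 held instead 8 µM BRD0705, a compound selective for GSK3 alpha. The comparison asks how ESCs kept with the selective compound differ from ESCs in 2i. The labels name the line E14 but tell of B6D2F1 ESCs derived and grown on feeder cells, once in each medium, with culture on gelatin. A difference between separately derived lines and a difference between media therefore cannot be told apart. The labels do not say whether the 3 libraries of a group came from separate cultures. The p-values therefore speak of the spread among these 6 libraries, and that spread may be technical.

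Histone proteins package DNA. An octamer of H2A, H2B, H3 and H4 wraps the DNA into a nucleosome, and H1 binds where the DNA enters and leaves it. A dividing cell makes the bulk of its new histones in S phase, from many small intronless genes that stand in clusters. Their messages end in a short stem-loop that the stem-loop binding protein Slbp holds, and they carry no poly(A) tail, unlike other messenger RNAs. Replacement variants such as H3.3 and H2A.Z come from genes outside this rule, with introns and poly(A) tails, and are made throughout the cell cycle. H1f0 and H1f10, though matched by the rule, are linker histones that are also made outside S phase. Mouse ESCs divide fast, with a short G1, and spend much of their cycle in S phase. The libraries were made from total RNA depleted of ribosomal RNA, and the labels name no step that selects poly(A) tails.

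The stem-loop is shown first because many of the messages of these genes share it. A search for 16 bases made of a perfectly paired 6-base stem beginning with GG and a 4-base loop beginning with T found it in the annotated transcripts of 43 of 71 members matched to GENCODE M21. Over all genes of that annotation 690 of 55450 (1.24%) held such a sequence. Many annotated histone transcripts stop at the end of the coding part, so a member without a match may have a stem-loop outside its annotated transcript. Some members with longer transcripts had no match either, among them H1f0 (2055 bases), H2bc21 (2620 bases) and Hist1h2bq (2015 bases). The most frequent forms were these, in DNA letters with the stem in capitals.
24 members, among them H1f2, H2ac6, H2ac19, H2bc6, H3c4 and Hist1h2bp: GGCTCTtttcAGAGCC
H1f6, H2bc3, H2bc12, H3c3, H3c6 and H3c7: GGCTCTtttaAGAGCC
H4c3, H4c4, H4c6, H4c8, Hist1h4m and Hist1h4n: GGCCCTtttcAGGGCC
H4c9 and H4c14: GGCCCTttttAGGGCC
H4c2 and H4c11: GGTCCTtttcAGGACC
No H4 gene carried the GGCTCT stem of the leading form, and H4c6 and H4c9 differ in their loops. Members with an annotated stem-loop and members without one had nearly the same median difference between the media. Among 42 tested genes with it, 27 were lower and 1 higher in BRD0705/PD03 (median log2 fold change -0.34), and among 24 without it 15 were lower and 3 higher (median -0.32). By the same test 31.4% of all genes were lower and 30.1% higher.

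Histone RNA as a whole was lower in BRD0705/PD03, and so was each family's sum, by amounts that depended on the family and on the scaling. All members together took 0.505%, 0.459% and 0.494% of the counts in BRD0705/PD03 and 0.568%, 0.601% and 0.587% in 2i. In CPM, counts scaled to a common total (TMM), the sum was 4842 ± 180 against 5884 ± 225 (SD, n = 3), a log2 ratio of -0.28. Each BRD0705/PD03 library lay under each 2i library. H2B genes, whose protein pairs with H2A, summed to 1464, 1391 and 1463 CPM against 1906, 2054 and 1979 CPM (log2 ratio -0.46). H2A genes summed to 399, 336 and 402 against 473, 499 and 477 CPM (-0.35). That sum includes the pseudogene Hist1h2al, described further on, and without it H2A stood at 367, 310 and 371 against 473, 498 and 477 CPM (-0.47), close to H2B. H3 genes summed to 894, 838 and 928 against 1027, 1085 and 1065 CPM (-0.26). H4, the partner of H3, and the linker histones differed least. H4 genes summed to 1329, 1210 and 1301 against 1418, 1524 and 1355 CPM (-0.16), and H1 genes to 866, 859 and 846 against 894, 979 and 917 CPM (-0.12). In none of the families did the groups overlap. Scaled with upper-quartile factors the log2 ratio shrank to -0.05 for H1 and -0.10 for H4, and was -0.28 for H2A, -0.39 for H2B and -0.19 for H3. These sums are given without a test, and their sizes also depend on gene length, so a family is compared with itself only. Since these are bulk samples, fewer cells that make histone RNA and less of it per cell cannot be told apart.

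**Figure D1:**
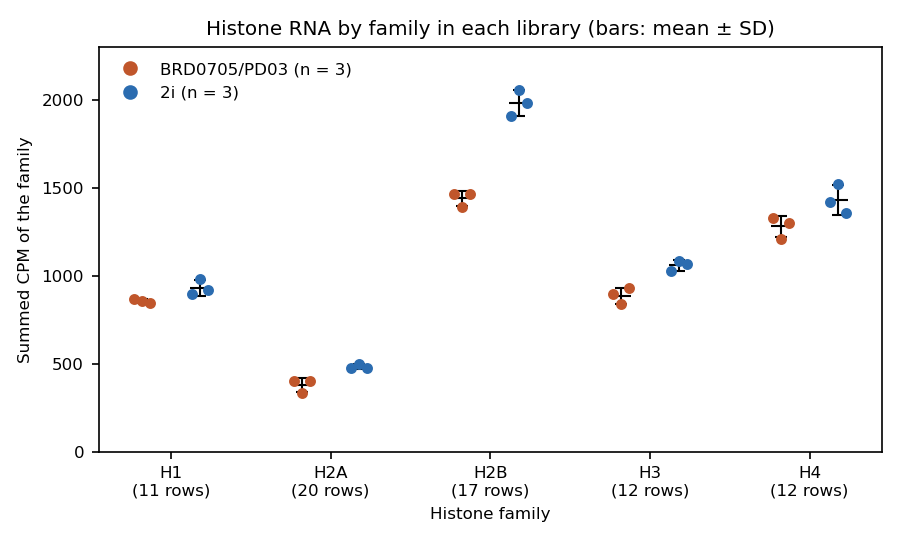
Summed CPM (vertical axis) of the 5 histone families in each library, with BRD0705/PD03 in orange and 2i in blue, 3 points per group and bars for the mean ± SD. The groups are apart in every family, and the H2B sums, at 1439 ± 41.6 against 1980 ± 74.3 CPM, are the farthest apart.

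Of the 72 members 66 passed the filter on low counts and were tested with edgeR. At an adjusted p under 0.05, 42 were lower and 4 higher in BRD0705/PD03, and 20 were not called. Over all 20422 genes tested the background was high: 61.4% were called, 31.4% lower and 30.1% higher. The share of members called, 69.7%, was thus near the background, while their direction was mostly downward: the median log2 fold change was -0.34 against 0.00 over all genes. The median size of the difference regardless of sign was 0.37 for members and 0.40 for all genes. Only 14 members were both called and changed by at least 1.5-fold, where 34.6% of all genes were. For 44 members every BRD0705/PD03 library lay below every 2i library, and for 5 it lay above. Such separation was found for 66.0% of all genes, 33.6% below and 32.4% above. The number called higher fell to 2 without BRD0705/PD03 replicate 1, without 2i replicate 1 or without 2i replicate 3.

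The 6 members that did not pass were H1f7, H1f8, H1f11-ps, H2ac5-ps, H2ac14 and H2ac18. H1f7 and H1f8, linker histones of male and female germ cells, had at most 0.0199 CPM in any library, and H2ac18 had no counts in any. No stretch of 31 bases in the transcript of H2ac18 was unique to it, so its lack of counts is uncertain. The families differed in how many members were called. In H2B 13 of 17 were lower and none higher, with a median log2 fold change of -0.51. In H2A 11 of 17 were lower and 3 higher (median -0.45), and in H3 9 of 12 were lower and none higher (-0.22). In H4 5 of 12 were lower and 1 higher (-0.19), and in H1 4 of 8 were lower and none higher (-0.16).

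**Figure D2:**
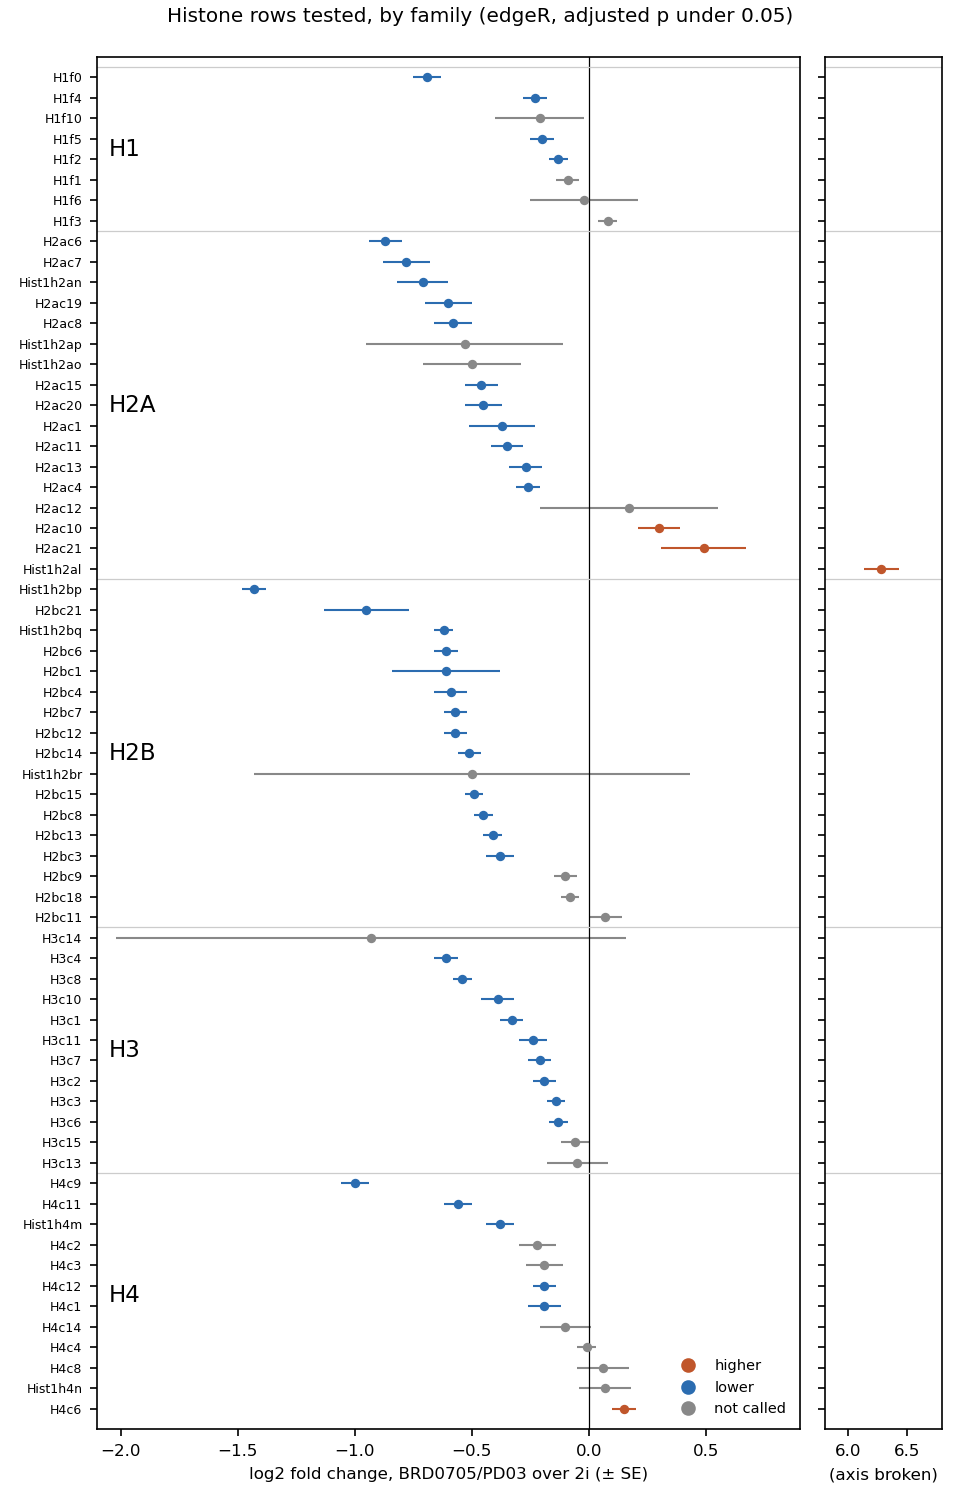
Log2 fold change of BRD0705/PD03 over 2i (horizontal axis, ± SE) for the 66 tested members, grouped by family and coloured by the edgeR call. Most lie between -1 and 0, Hist1h2bp is the lowest at -1.43, and Hist1h2al, on the broken part of the axis, is at 6.28.

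Among the linker histones H1f0 differed most. It is the H1 form associated with cells that slow or stop dividing. It stood at 20, 21.1 and 18.3 CPM in BRD0705/PD03 and at 32.2, 31.3 and 32.0 CPM in 2i. The groups were far apart, with a log2 fold change of -0.69 ± 0.06 (SE; edgeR adjusted p = 1.94e-08). The S phase linker histones moved less. H1f4 stood at 85.7, 81.8 and 74.4 against 91.6, 94.7 and 96.8 CPM (-0.23 ± 0.05, edgeR adjusted p = 0.000626), and H1f5 at 155 ± 0.775 against 178 ± 11.9 CPM (-0.20 ± 0.05, adjusted p = 0.000849). H1f2 was called lower by a small margin, at 133 ± 0.145 against 145 ± 7.39 CPM (-0.13 ± 0.04, edgeR adjusted p = 0.0133). Its call was lost without 2i replicate 2 (-0.09), with upper-quartile factors (-0.06) and without the filter (-0.11). H1f1 at 318 ± 1.46 against 339 ± 22.8 CPM and H1f10 at 1.80 ± 0.116 against 2.09 ± 0.408 CPM were not called, with adjusted p = 0.091 and 0.35 by edgeR. H1f6, the linker histone of the testis, stood at 1.31 ± 0.18 against 1.32 ± 0.375 CPM and was not called (-0.02). H1f3 went the other way in its values, at 147 ± 3.24 against 139 ± 6.07 CPM (0.08 ± 0.04, edgeR adjusted p = 0.0981). H1f3 was called higher with upper-quartile factors (0.15), with a minimum mean of 1 CPM (0.11) and without 2i replicate 2 (0.13). The H1 sum over the sum of core histones was 0.188 ± 0.00223 in 2i and 0.215 ± 0.0108 in BRD0705/PD03, without overlap of the groups (0.185, 0.190 and 0.188 against 0.212, 0.227 and 0.207).

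H2B genes held the largest fall. Hist1h2bp stood at 36.8, 35.4 and 38.8 CPM in BRD0705/PD03 and at 94.8, 105 and 98.7 CPM in 2i. The 2i libraries were all over the BRD0705/PD03 libraries, with a log2 fold change of -1.43 ± 0.05 (edgeR adjusted p = 2.06e-14) and 2.69-fold more RNA in 2i. H2bc21, an H2B variant gene of the chromosome 3 cluster, was scarce, at 1.48, 1.16 and 1.30 against 2.67, 2.41 and 2.60 CPM (-0.95 ± 0.18, edgeR adjusted p = 0.000179). The groups did not overlap in either gene. Among the H2B genes of highest CPM, Hist1h2bq stood at 215, 213 and 212 against 317, 340 and 329 CPM (-0.62 ± 0.04, edgeR adjusted p = 9.06e-11). H2bc13 also fell, from 221 ± 9.58 to 166 ± 1.31 CPM (-0.41 ± 0.04, edgeR adjusted p = 5.05e-08). H2bc18 was not called, at 205 ± 3.07 against 215 ± 9.98 CPM (-0.08 ± 0.04, edgeR adjusted p = 0.126). No stretch of 31 bases in its transcript was unique to it, so this value is uncertain. H2bc9 and H2bc11 were not called either (-0.10 and 0.07).

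H2A genes were more mixed. H2ac6 stood at 14.3, 12.9 and 14.9 CPM in BRD0705/PD03 against 25.5, 25.5 and 25.9 CPM in 2i (-0.87 ± 0.07, edgeR adjusted p = 2.2e-09). H2ac7 (-0.78), Hist1h2an (-0.71), H2ac8 (-0.58) and H2ac4 (-0.26) were also called lower. In each of these 5 genes the groups lay apart. Hist1h2ao, at 32.9, 31 and 47.5 against 58.0, 47.7 and 54.0 CPM, was not called (-0.50 ± 0.21, edgeR adjusted p = 0.106), and its BRD0705/PD03 replicate 3 lay near the 2i libraries. Without that library it was called lower (-0.72), as it was with DESeq2 (-0.51). Of its 31-base words 93.8% also occur in Hist1h2ap, named here after its values were seen. Hist1h2ap stood at 26.8, 16.7 and 12.3 against 16.6, 30.3 and 31.5 CPM and was not called (-0.53). It was lowest in BRD0705/PD03 replicate 3, where Hist1h2ao was highest in that group. How reads were divided between them was not tested. H2ac10 was called higher, at 18.5, 15.1 and 18.6 against 14.3, 15.1 and 12.9 CPM (0.30 ± 0.09, edgeR adjusted p = 0.00661), with its replicate 2 libraries almost level. H2ac21, a low gene of chromosome 3, stood at 4.90, 3.70 and 3.02 against 2.73, 2.93 and 2.53 CPM (0.49 ± 0.18, edgeR adjusted p = 0.0227). Its call was lost when BRD0705/PD03 replicate 1 (0.28), 2i replicate 1 (0.49) or 2i replicate 3 (0.44) was left out, and with DESeq2 (0.50).

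The H3 members of highest CPM were all called lower, by different amounts. H3c6 stood at 153 ± 6.28 against 167 ± 6.08 CPM (-0.13 ± 0.04, edgeR adjusted p = 0.0137), H3c2 at 120 ± 5.72 against 136 ± 9.08 CPM (-0.19) and H3c10 at 105 ± 8.95 against 137 ± 9.37 CPM (-0.39). The call of H3c6 was lost without BRD0705/PD03 replicate 2 (-0.11), without 2i replicate 2 (-0.09), with upper-quartile factors (-0.06) and without the filter (-0.11). That of H3c2 was lost without 2i replicate 3 (-0.18). The clearest H3 falls were in H3c4, at 40.2, 40.2 and 43.9 against 60.4, 64.9 and 63.8 CPM (-0.61 ± 0.05), and H3c8, at 64.0, 63.4 and 68.5 against 92.3, 94.5 and 97.5 CPM (-0.54 ± 0.04). The groups lay well apart in both, with edgeR adjusted p = 5.48e-09 and 5.34e-09; they were named after their values were seen. H3c13, H3c14 and H3c15, the H3 genes of chromosome 3, were not called. H3c14 had no counts in BRD0705/PD03 replicate 3 and 2.25 and 2.80 CPM in the others of that group. All 31-base words of its transcript also occur in other genes, so its value is uncertain. The same holds for H3c13 and, in other families, for H2bc18, H2ac18 and H2ac19.

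H4 genes encode the same protein, yet differed widely in their change. H4c9 stood at 29.3, 25.8 and 31.1 CPM in BRD0705/PD03 and at 54.8, 60.1 and 57.5 CPM in 2i, apart without overlap (-1.0 ± 0.06, edgeR adjusted p = 4.85e-10). H4c4 was level, at 302, 300 and 301 against 303, 311 and 295 CPM (-0.01 ± 0.04, edgeR adjusted p = 0.829). H4c6 was called slightly higher, at 104, 98.9 and 95.1 against 89.3, 95 and 83.0 CPM (0.15 ± 0.05, edgeR adjusted p = 0.0147). The groups of H4c6 almost touched, and its call was lost without BRD0705/PD03 replicate 1 (0.12), 2i replicate 1 (0.16) or 2i replicate 3 (0.11). H4c11, named after its values were seen, fell from 39.6 ± 2.36 to 26.9 ± 1.76 CPM (-0.56 ± 0.06). H4c12 stood at 298 ± 12 against 340 ± 24.5 CPM (-0.19 ± 0.05, edgeR adjusted p = 0.0042). With upper-quartile factors (-0.12) or without 2i replicate 1 (-0.17) H4c12 was not called. Hist1h4m was lower (-0.38 ± 0.06, edgeR adjusted p = 0.000209). H4c8, named after its values were seen, was not called (0.06 ± 0.11).

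The one very large difference among the members was in Hist1h2al, a pseudogene in GENCODE M21 and in RefSeq, far from the histone clusters. GENCODE places it on GRCm38 chromosome 13 from 51202727 to 51203065, minus strand. RefSeq gives a longer transcribed pseudogene, H2af-ps2, from 51200084 to 51203066. Hist1h2al stood at 32.1, 25.9 and 30.8 CPM in BRD0705/PD03 and at 0.237, 0.419 and 0.395 CPM in 2i (6.28 ± 0.15, edgeR adjusted p = 1.23e-16). Its GENCODE transcript is nearly a copy of H2ac19, an H2A gene of the chromosome 3 cluster: over 339 bases 99.4% were the same, with 2 mismatches. The rest of the RefSeq span was not compared. Those are shown in 25-base stretches of the transcripts as annotated, with the differing base in capitals. Counted from the 5′ end of Hist1h2al and with the base of H2ac19 given first, they are T120C and G216T.
H2ac19 at the mismatch nearer the 5′ end: ggagcgtgtgggTgccggcgcgccg
Hist1h2al at the same place: ggagcgtgtgggCgccggcgcgccg
H2ac19 at the mismatch nearer the 3′ end: caacaagaagacGcgcatcatcccg
Hist1h2al at the same place: caacaagaagacTcgcatcatcccg
H2ac19 moved the opposite way, from 114, 127 and 110 CPM in 2i to 81.9, 66.5 and 82.3 CPM in BRD0705/PD03 (-0.60 ± 0.10, edgeR adjusted p = 0.00238). Summed with Hist1h2al and with H2ac18, another copy, the values were 114, 92.4 and 113 CPM in BRD0705/PD03 and 114, 127 and 111 CPM in 2i. The groups then overlapped, and the sum was not called (-0.14 ± 0.10, edgeR adjusted p = 0.284). The deposited values are estimated counts, which divide reads shared by near-identical copies between them; how far that division shaped either gene was not tested. Genes taken as neighbours of Hist1h2al did not share the size of the difference. Gm44341 was at 31.7 ± 5.12 against 37.1 ± 3.41 CPM and was not called. Nxnl2 was not called at 0.672 ± 0.137 against 0.825 ± 0.272 CPM, and Spin1 was higher at 171 ± 9.42 against 104 ± 0.842 CPM. These 3 genes were chosen after the values were seen.

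**Figure D3:**
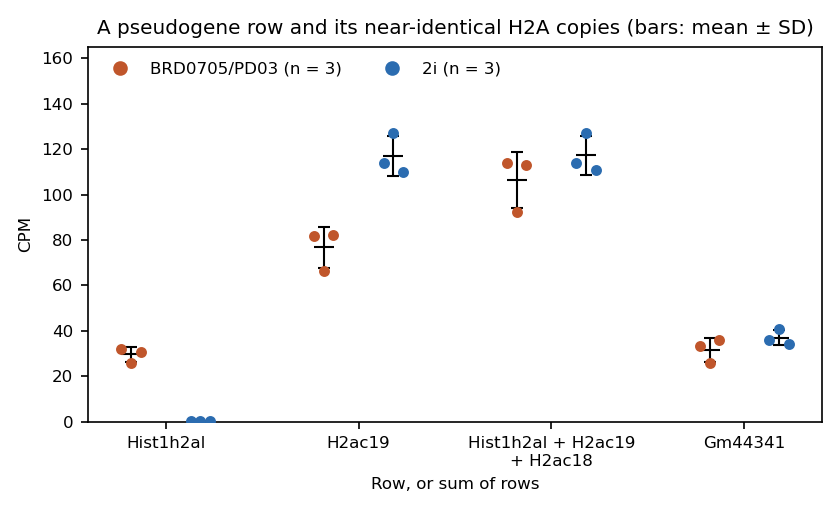
CPM (vertical axis) of Hist1h2al, of H2ac19, of the sum of Hist1h2al, H2ac19 and H2ac18, and of Gm44341, per library with mean ± SD, BRD0705/PD03 in orange and 2i in blue. Hist1h2al and H2ac19 are apart in opposite directions, and the groups overlap in the sum, at 106 ± 12.2 against 117 ± 8.72 CPM.

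Other members share sequence as well, so their single values are less certain than those of their sums. Of the 66 tested members, 25 had at least 50% of the 31-base words of their transcript in no other gene, and among these 16 were lower and none higher (median log2 fold change -0.23). Among the 41 with fewer unique words 26 were lower and 4 higher (-0.35), so all 4 members called higher belonged to the less unique ones. An alternative chosen after the data were seen summed sets of members linked by shared sequence. A member joined a set when it held at least 75% of the 31-base words of another, or the reverse. Not every member of a set is thus a near copy: 72.4% of the words of H3c4 occur in no other gene. The sums left 48 tested rows, of which 32 were lower and 2 higher (median -0.30). Only members were summed, so words shared with genes outside the rule were left aside. Such words are shared by H2bc18 and H3c13 with Gm20628, and by H2ac18 with Gm20633. H3c14 and H3c15 share words with Gm20634, and H2ac21 with Gm15444. H2ac20 was not in the set of Hist1h2al, though 62.1% of the words of Hist1h2al occur in it. The sum of 9 H2A genes from H2ac7 and H2ac10 to Hist1h2ap stood at 157 ± 17.2 against 210 ± 4.6 CPM (-0.42 ± 0.07, edgeR adjusted p = 0.000863), so the rise of H2ac10 lay within a set that fell. H2bc13, Hist1h2bq and Hist1h2br summed to 381 ± 2.42 against 552 ± 22.2 CPM (-0.53 ± 0.04, edgeR adjusted p = 1.21e-09). H3c2, H3c4, H3c8, H3c10 and H3c11 summed to 433 ± 25.4 against 551 ± 14.6 CPM (-0.35 ± 0.05, edgeR adjusted p = 1.9e-06), and the chromosome 3 genes H3c13, H3c14 and H3c15 to 82.4 ± 6.78 against 87.1 ± 6.18 CPM, which was not called (-0.08, adjusted p = 0.308).

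Most members stand in 2 clusters, and all tested ones are on autosomes. The block of chromosome 13 from 21715763 to 21837530 held 18 tested members, of which 14 were lower and none higher (median -0.48). In the block from 23531050 to 23764406 there were 29, of which 19 were lower and 2 higher (median -0.21). The smaller cluster of chromosome 3, from 96219865 to 96270132, held 9 tested members, with 3 lower and 1 higher (median -0.10). Neighbours could differ. H2bc6, which follows H4c4 (-0.01), stood at 49.4 ± 1.09 against 75.4 ± 4.43 CPM (-0.61). Its annotated span overlaps that of the linker histone gene H1f4 (-0.23), and 24.5% of the 31-base words of H1f4 also occur in H2bc6. H2bc6 was chosen after its values were seen. Beside these counts stand 31.4% lower and 30.1% higher over all genes. Differences between blocks or families were not tested.

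**Figure D4:**
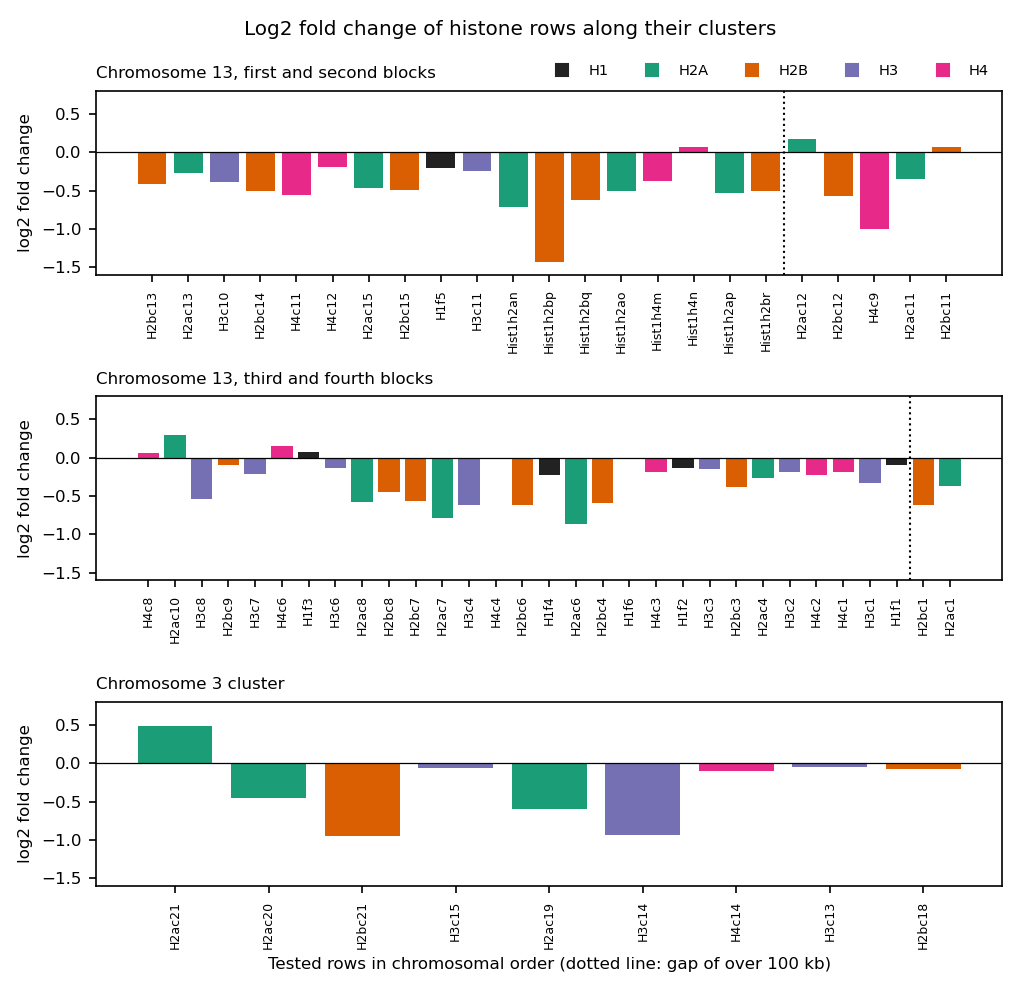
Log2 fold change of BRD0705/PD03 over 2i (vertical axis) of the tested members in their order along chromosome 13 (upper and middle panels) and chromosome 3 (lower panel), coloured by family. Bars point down over most of chromosome 13, with Hist1h2bp lowest at -1.43 and H4c9 at -1.0, and the 9 bars of chromosome 3 run from H2bc21 at -0.95 to H2ac21 at 0.49, with 4 of them between -0.10 and -0.05.

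Many H2A and H2B genes stand back to back and share the DNA between their starts. There were 14 such pairs of members within 1 kb, 13 of them an H2A with an H2B gene. In 8 of those both genes were called lower, among them H2ac6 and H2bc4 (-0.87 and -0.59), H2ac7 and H2bc7 (-0.78 and -0.57), and Hist1h2an and Hist1h2bp (-0.71 and -1.43). Among all tested members 11 of 17 H2A and 13 of 17 H2B genes were lower, and whether paired genes change together was not tested. H2ac14, paired with H2bc14, was below the filter. In H2ac11 and H2bc11 the H2A gene was lower and the H2B gene was not called (-0.35 and 0.07), and in H2ac12 and H2bc12 the reverse held (0.17 and -0.57). Genes for the germ cell forms of H2A and H2B, H2ac1 and H2bc1, were both low and both called lower (-0.37 and -0.61), with overlapping groups in H2bc1.

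The promoters of the members are shown for the pair with the largest fall and for the H4 genes that moved in opposite directions. RefSeq promoters on GRCm38.p6 were found for 63 members (64 promoters). The letters CCAAT, on either strand within 250 bases before the start, stood in 79.7% of member promoters and 33.8% of all. The letters TATAAA, on either strand within 50 bases before the start, stood in 26.6% of member promoters and 3.5% of all. All 17 H2A and all 16 H2B promoters held CCAAT, as did 7 of 10 for H1 and 8 of 10 for H3, but only 3 of 11 for H4. Below are the 120 bases before each start, with CCAAT or its reverse complement ATTGG and TATAAA in capitals. A match is a description and not a binding site.
Hist1h2an, chr13:21787249-21787368, minus strand: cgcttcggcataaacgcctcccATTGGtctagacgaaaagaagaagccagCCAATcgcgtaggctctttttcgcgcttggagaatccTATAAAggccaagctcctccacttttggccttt
Hist1h2bp, chr13:21787368-21787487, plus strand: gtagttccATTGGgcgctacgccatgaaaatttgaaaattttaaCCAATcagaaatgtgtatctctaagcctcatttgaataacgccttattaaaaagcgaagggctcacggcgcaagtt
H4c9, chr13:22041363-22041482, minus strand: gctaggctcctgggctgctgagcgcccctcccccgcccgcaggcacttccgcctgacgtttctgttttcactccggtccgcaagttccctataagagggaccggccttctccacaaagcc
H4c6, chr13:23551669-23551788, minus strand: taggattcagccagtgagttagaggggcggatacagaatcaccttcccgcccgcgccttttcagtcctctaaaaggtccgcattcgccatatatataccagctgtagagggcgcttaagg
The stretches of Hist1h2an and Hist1h2bp meet in the space between the genes and hold 4 of these CCAAT or ATTGG words. Neither H4 stretch holds them or TATAAA, whether the gene fell (H4c9) or was called slightly higher (H4c6).

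Genes that act on histone RNA were called in both directions, as were genes at large, of which 30.1% were higher and 31.4% lower. Of 23 tested genes for the stem-loop and the processing of the message end, 9 were higher and 8 lower (73.9% called, against 61.4% of all genes; median 0.00). Slbp stood at 146, 156 and 151 CPM in BRD0705/PD03 against 135, 132 and 128 CPM in 2i (0.20, edgeR adjusted p = 0.00036), so it was higher while the histone genes were mostly lower. Proteins of the U7 particle, which guides the cut behind the stem-loop, went apart: Lsm10 was lower, at 8.63, 9.95 and 9.07 against 12.2, 11.8 and 11.1 CPM (-0.35), and Lsm11 higher, at 12.8, 13.9 and 12.4 against 10.3, 9.20 and 9.39 CPM (0.44). Zfp473, a zinc finger protein that works with that particle, was higher (0.36). Casp8ap2, a scaffold of the histone locus body, and Eri1, an exonuclease that trims the stem-loop, were not called (0.07 and -0.02). Casp8ap2 was called higher with upper-quartile factors (0.14), with a minimum mean of 1 CPM (0.09), without BRD0705/PD03 replicate 1 (0.12) and without 2i replicate 3 (0.10). In this list the calls of smallest p were Cstf2, a cleavage factor encoded on the X chromosome, at 108 against 211 CPM (-0.97), and Srrt, which couples the cap-binding complex to processing, at 334 against 254 CPM (0.40).

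Of 18 genes for transcription at the histone clusters 6 were higher and 5 lower (61.1% called; median 0.05). Npat, the coactivator of histone genes that cyclin E and Cdk2 act on, was not called, at 93.4 against 97.5 CPM (-0.06, edgeR adjusted p = 0.214). Hinfp, a factor of H4 promoters, was lower at 35.0, 35.3 and 36.0 against 44.4, 45.3 and 48.5 CPM (-0.38), and Cdk2 was lower at 86.0, 84.4 and 85.5 against 130, 126 and 121 CPM (-0.55). Neither gene's groups overlapped. Trim28, a corepressor of chromatin, was higher (0.44). Of 25 histone chaperones and assembly factors 7 were higher and 6 lower (median -0.01). At 52% called this list lay under the 61.4% of all genes, and its calls of smallest p, Rbbp7 (-0.87) and Atrx (-0.88), are both X-linked. Of 37 tested genes for DNA replication and S phase, 12 were higher and 10 lower (median -0.03), and the 59.5% called were near the share over all genes. Pola1, an X-linked polymerase subunit (-0.78), and Lig1, the replicative ligase (-0.50), had the smallest p. Cdt1, a licensing factor, was higher (0.35) and Pcna, the sliding clamp, was not called (0.08); both were named after their values were seen. The sum of all histone members over the sum of this list was 0.760, 0.674 and 0.743 in BRD0705/PD03 and 0.811, 0.868 and 0.857 in 2i, with the groups apart.

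The genes for the replacement form of H3 moved against those for replicative H3. H3f3a, which encodes H3.3, stood at 497, 547 and 514 CPM in BRD0705/PD03 and 368, 366 and 340 CPM in 2i (0.54, edgeR adjusted p = 6.14e-09). H3f3b, the other H3.3 gene, stood at 664, 713 and 698 against 515, 530 and 467 CPM (0.46, edgeR adjusted p = 1.57e-07). Both were higher in every BRD0705/PD03 library. Their sum over the sum of the H3 members was 1.30, 1.5 and 1.31 against 0.859, 0.825 and 0.757, so the groups were far apart (1.37 ± 0.116 against 0.814 ± 0.052). Ratios like this depend on gene length and show only how the balance differs between the media. H2A.Z did not show such a pattern: H2az1 was lower (-0.19, edgeR adjusted p = 0.0097) and H2az2 higher (0.29). The call of H2az1 ended with upper-quartile factors (-0.13), without 2i replicate 1 (-0.18) and without BRD0705/PD03 replicate 1 (-0.19). H2ax, the H2A form of the DNA damage signal, was not called (-0.06), though it was without 2i replicate 3 (-0.10). In a list of 11 tested histone genes whose symbols fall outside the rule, replacement variants among them, 4 were higher and 3 lower (63.6% called, median -0.03). H2bu2 was highest (0.79) and Macroh2a2 lowest (-0.76). H2az2, H2bu2 and Macroh2a2 were named after their values were seen.

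Ratios between families within a library followed the same differences. H2B over H4 was 1.10, 1.15 and 1.12 in BRD0705/PD03 and 1.34, 1.35 and 1.46 in 2i, with no overlap. H3 over H4 overlapped between the groups, at 0.673, 0.693 and 0.713 against 0.724, 0.712 and 0.786, as did H2A over H2B, at 0.272, 0.241 and 0.275 against 0.248, 0.243 and 0.241. Without Hist1h2al, H2A over H2B was 0.242 ± 0.0171 against 0.244 ± 0.00391, and the groups overlapped again.

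**Figure D5:**
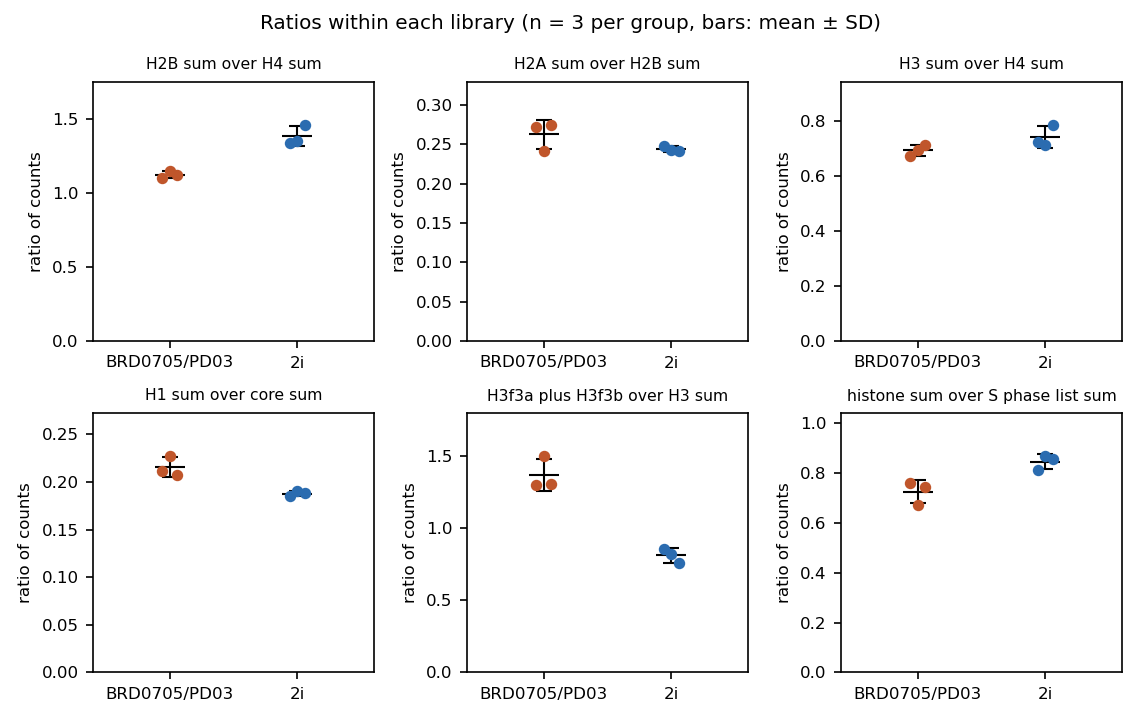
Ratios of summed counts (vertical axes, from 0) within each library, 3 libraries per group with mean ± SD, BRD0705/PD03 in orange and 2i in blue. H2B over H4 and histones over the S phase list are lower in BRD0705/PD03, H1 over core and H3.3 genes over H3 are higher, and the groups overlap for H2A over H2B and H3 over H4.

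Library totals ran from 16968959 to 51180228 counts. Other features of the cells differed between the groups along with the histone genes. Among 10 ESC markers, none of them at 0, BRD0705/PD03 was lower for 5 and higher for 4. They had summed levels of 2834 to 2938 against 3648 to 3936 CPM. Of 20 fibroblast markers, which feeder cells would carry, 17 were higher and 1 lower (90% called, against 61.4% of all genes), with none at 0. Their median log2 fold change was 0.93. Summed levels were 2284 to 3028 against 1919 to 1987 CPM. These sums hold Fn1, not called at 798 against 810 CPM, and Sparc, the lower one, at 272 against 350 CPM. The Y-linked genes Ddx3y and Eif2s3y, added after the values were seen, stood at 122 ± 7.06 and 109 ± 3.00 against 3.03 ± 0.26 and 1.16 ± 0.297 CPM. The part of these in the histone differences was not tested, and the sex chromosomes of the lines and their media cannot be told apart.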

How the data were processed

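Each medium had 3 libraries of rRNA-depleted total RNA, per the labels' protocols. Each deposited table lists 53927 gene symbols with whole numbers. The submitters' processing notes name Salmon and mm10, and the deposited values were read as the authors' estimated counts after rounding, with no scaling. The sources used here give no version, annotation, strand setting or way of summing transcripts. Totals ranged from 16968959 to 51180228, and no replicates matched within sampling noise (chi-square per degree of freedom 2.77 to 9.84). The test was edgeR 4.0.16's, run in R 4.3.3 (filterByExpr, TMM, robust quasi-likelihood test, group as the only term, two-sided), with Benjamini-Hochberg adjustment over 20422 genes and a threshold of 0.05. The estimated biological coefficient of variation (common) was 0.0591. A standard error is the log2 fold change over the square root of F. CPM use effective library sizes.

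The members and gene lists were chosen with earlier results of these data known. By rule, the text gives in each family the 3 members of highest CPM, the 4 highest and 4 lowest log2 fold changes called with a mean of at least 1 CPM, H1f0 to H1f5 and H1f10, 12 regulators and variants, and the 2 called genes of smallest p per list. Apart from H1f6, others named with full values are said to be chosen after their values were seen. Further members illustrate counts. Sequences and coordinates are from GENCODE M21 and RefSeq on GRCm38, with 71 and 72 members matched. Alternatives were median-ratio and upper-quartile factors, DESeq2 1.42.0, other filters, a test against 1.5-fold, leaving out each library and a block for the replicate number. Added after the data were seen were sums of members that share sequence, and family sums without Hist1h2al. The fit was tested on simulated data, with changed genes drawn from all genes tested. It recovered 30% of changes of 1.2-fold, 60% of 1.5-fold, 74% of 2-fold and 88% of 4-fold. A member that was not called may thus still differ by a small amount.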

Additional observations from a re-analysis of the deposited data

How the results depend on the processing

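Of 66 tested members, 42 were lower and 4 higher. Leaving out each library in turn gave 36 to 42 lower and 2 to 5 higher. A test against a fold of 1.5 (glmTreat) called 5 lower and 1 higher, and summing members that share sequence left 2 higher. DESeq2 called 43 lower and 3 higher, and upper-quartile factors 34 and 5. With upper-quartile factors the median of all genes moved by 0.07, and the log2 ratio of the sums became -0.05 for H1, -0.28 for H2A, -0.39 for H2B, -0.19 for H3, -0.10 for H4 and -0.22 for all members. Without Hist1h2al, left out after the data were seen, the H2A sum was at -0.47 and that of all members at -0.29. Leaving out libraries gave sums from -0.30 to -0.25 for all members, -0.15 to -0.08 for H1, -0.40 to -0.27 for H2A, -0.49 to -0.43 for H2B, -0.29 to -0.22 for H3 and -0.20 to -0.12 for H4. Some genes that were not called changed sign: H4c4 with upper-quartile factors (0.06), no filter (0.01), a mean of at least 1 CPM (0.01) and without 2i replicate 2 (0.02, range -0.02 to 0.02 over libraries left out), Eri1 (0.05, 0.00, 0.01 and, without 2i replicate 1, 0.01, range -0.03 to 0.01), Npat and H2ax with upper-quartile factors (0.00 each), Nxnl2 without 2i replicate 1 (0.01, range -0.45 to 0.01) and H4c8 without 2i replicate 3 (0.00, range 0.00 to 0.17). The cause was not tested. With the replicate number as a block, 41 members were lower and 4 higher; deviations of same-numbered libraries correlated at -0.05, 0.09 and -0.05, so the numbers do not pair the samples. Scarce members such as H1f10 and H2bc21 are limited by depth. H2ac18, H2ac19, H2bc18, H3c13 and H3c14 are limited by their lack of sequence of their own.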
